A study of Mus musculus with 8 samples.

Results

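The 33 genes described here are interferon-stimulated genes, chosen by symbol as known members of the interferon response. The choice was made with earlier results of these data known. Each of the 33 symbols was found among the 24421 gene symbols listed in the RNA files. They form 2 groups. The first holds 26 genes typical of the response to type I interferon, and the second holds 7 GTPases of the guanylate-binding protein (GBP) and immunity-related GTPase (IRG) families, which respond to interferon gamma as well.

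RNA came from bone marrow cells of C57BL/6 mice that had been transformed with MLL-AF9, a fusion oncogene of acute leukemia, and sorted for high c-KIT, the stem cell factor receptor. The KO group (2 libraries) lacked Ikzf2 and is labelled Ikzf2 Δ/Δ. The WT group (2 libraries) is labelled both Ikzf2 WT and Ikzf2 f/f, that is, it carried the floxed but undeleted gene. Ikzf2 encodes the transcription factor Helios. Both groups share the strain, the oncogene, the sort and a freeze and thaw of the marrow. The sources used here do not give the age of the mice, the Cre that deleted the gene or how it was switched on, or whether the replicates came from separate mice, so each p-value reflects only how far these libraries differ. Sex-linked genes, given below, differed between the KO replicates, and for the WT replicates the spread can be technical alone. A further 4 samples of chromatin accessibility were not analysed here.

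Interferons are secreted alarm proteins. Type I interferons bind the receptor pair IFNAR1 and IFNAR2, whose kinases JAK1 and TYK2 activate a transcription factor complex that holds STAT2 and IRF9. That complex binds the interferon-stimulated response element (ISRE) in the promoters of antiviral genes. Interferon gamma binds IFNGR1 and IFNGR2, and its signal reaches promoters mainly at the gamma-activated site (GAS). Blood stem and progenitor cells are known to hold some interferon-stimulated genes at a standing level without infection.

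Gene counts came to 16006081 and 18017545 in KO replicates 1 and 2 and to 19286090 and 18711837 in WT replicates 1 and 2. Levels below are CPM, that is counts scaled to library size with TMM factors, and they are compared between libraries only, since gene length was not taken into account. The targeted gene Ikzf2 had 10.9 and 26.5 CPM in KO and 283 and 271 CPM in WT, with a log2 fold change of -3.89 (SE 0.48). KO replicate 1 stood apart in its sex-linked genes, since the X-inactivation RNA Xist was at 833 and 0.35 CPM in KO, against 0.60 and 0.48 CPM in WT. The Y-linked gene Ddx3y was at 0.062 and 70.1 CPM in KO, against 109.5 and 102 CPM in WT, so the KO replicates were of opposite sex and did not come from the same mouse. It was also the highest in RNA of 4 genes of class II antigen presentation on the dendritic cell list, Cd74, H2-Aa, H2-Ab1 and H2-Eb1, which summed to 1767 and 116 CPM in KO and 39.3 and 33.5 CPM in WT. The sum over the other 13 markers on that list was lowest in KO replicate 1, with 129 and 311 CPM in KO and 339.7 and 190.5 CPM in WT. Most of that sum was Flt3, with 69.1 and 286 CPM in KO and 248 and 153 CPM in WT. Of the 10 tested markers on the whole list, 6 were highest in KO replicate 1, 1 in KO replicate 2 and 3 in WT replicate 1. The 6 were the 4 class II genes, Ciita and Clec9a. Kit, the sorted receptor, was at 236 and 376 CPM in KO and 216 and 330 CPM in WT. The 12 T and NK cell markers in the files summed to 113 and 145 CPM in KO and 99.8 and 77.7 CPM in WT, mostly Nkg7, with 94.2 and 133 CPM in KO and 99.0 and 64.8 CPM in WT, while Cd8a and Ncr1 had 0 counts in each of the 4 libraries. In bulk RNA, fewer cells of a type and less RNA per cell cannot be told apart.

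None of the 33 interferon-stimulated genes was called as changed between Ikzf2 KO and WT cells by any of the 3 tools used. Of the 33 genes, 28 had enough counts to be tested, and 0 of them passed edgeR's quasi-likelihood test at a Benjamini-Hochberg adjusted p of 0.05. Over all 12623 genes tested, edgeR called 0 (0%), with 968 genes, or 7.67%, at an unadjusted p under 0.05, and 0 of the 28 were among those. Leaving out any 1 library, KO replicate 1 included, also left 0 members called. DESeq2 called 352 of 13422 genes (2.62%) and 0 of the 28. The voom method in limma also called 0 of 12623 genes (0%), with 937 at an unadjusted p under 0.05. The lowest adjusted p among the members was 0.747 by edgeR and 0.597 by DESeq2, both at Isg20. The log2 fold change, KO over WT, was above 0 in 16 members and below 0 in 12, with a median of 0.16, against -0.0043 over all genes tested.

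What these libraries can show was limited by their spread. A 95% interval of the log2 fold change held 0 in 28 of 28 members, and its median half-width was 1.24, against 0.80 over all genes tested. The interval lay wholly between -1 and 1, that is within a 2-fold change, for 7 members: Stat2, Ddx58, Ifih1, Trim30a, Gbp7, Irgm1 and Igtp. For the other 21 tested members a 2-fold difference in at least 1 direction lay inside the interval. The KO libraries lay above both WT libraries in 4 of 28 members (14.3%, against 18.1% of all genes tested) and below both in 5 (17.9%, against 19.1%). Both shares were near those of all genes.

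**Figure D1:**
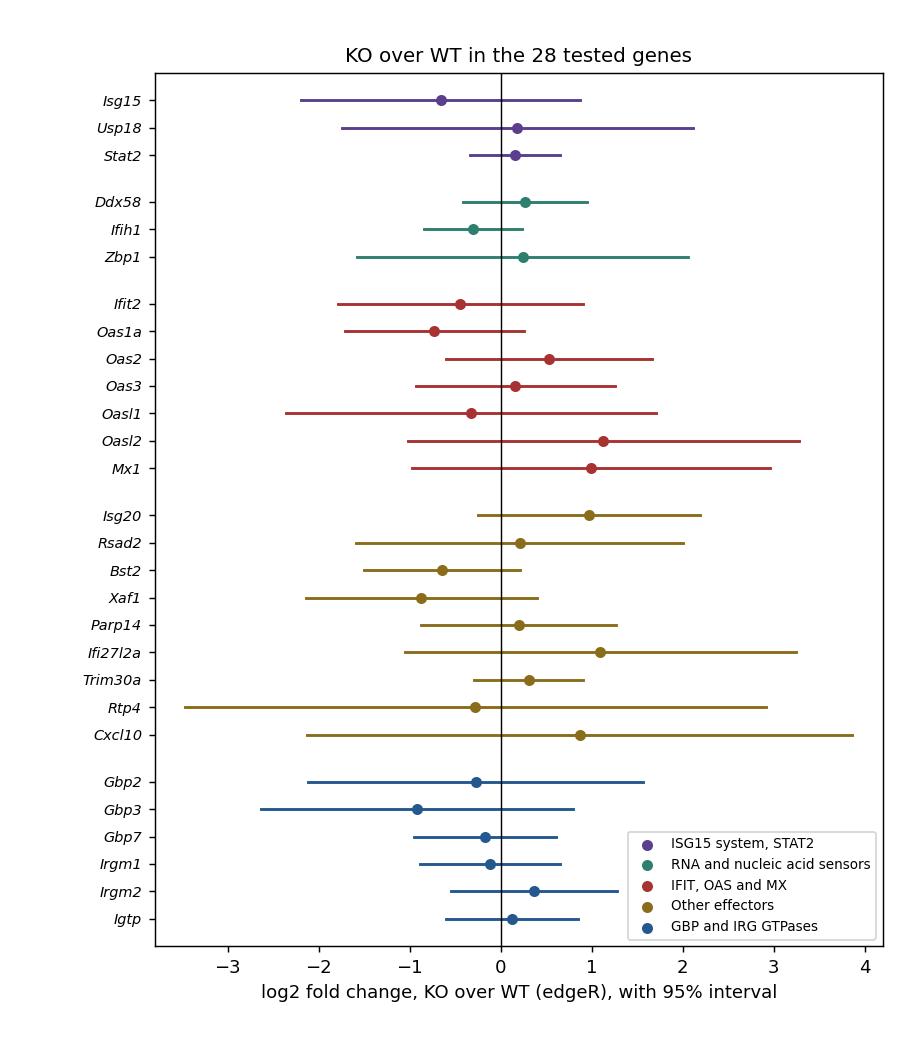
Log2 fold change, KO over WT, of the 28 tested interferon-stimulated genes by edgeR (x axis, points), with the 95% interval (lines) and colours for the 5 groups by role. Each of the 28 intervals crosses 0, and the points run from -0.92 at Gbp3 to 1.13 at Oasl2.

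The promoters of these genes are shown for the elements through which interferon signalling acts. RefSeq promoters of build GRCm38.p6, from 250 bases before to 50 after each start, matched 24 of the 33 symbols. An ISRE pattern, GAAA followed by any 2 bases and a second GAAA, on either strand, occurred in 18 of the 24 (75.0%) and in 1079 of 27025 genes overall (3.99%). The GAS pattern TTCNNNGAA, which reads the same on both strands, occurred in 7 of the 24 (29.2%), against 9.55% of all genes. All 6 GTPase genes with a promoter held the ISRE pattern and 3 held the GAS pattern, against 12 and 4 of 18 in the type I group. In 5 members both patterns occurred. Since the members were picked as interferon-stimulated genes, these shares describe them and test nothing, and a match is not a measured binding site.

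The 160 bases before the start in the promoter table are printed for 7 genes that span the levels described below, with each ISRE and GAS match in capitals and every sequence 5′ to 3′ on the gene's own strand. Isg15 (chr4:156200819-156200978, minus strand) holds 3 overlapping ISRE matches and Ifit1 (chr19:34640729-34640888, plus strand) 2 on the opposite strand. Oas1a (chr5:120907526-120907685, minus strand) holds 1 GAS match and 2 overlapping ISRE matches, its promoter start lying inside the gene span given below, and Trim30a (chr7:104465194-104465353, minus strand) 1 ISRE match on the opposite strand. Irgm1 (chr11:48871421-48871580, minus strand) holds 2 overlapping ISRE matches. Irgm2 (chr11:58214817-58214976, plus strand) and its neighbour Igtp (chr11:58199396-58199555, plus strand) each hold a GAS match followed closely by an ISRE match.
Isg15: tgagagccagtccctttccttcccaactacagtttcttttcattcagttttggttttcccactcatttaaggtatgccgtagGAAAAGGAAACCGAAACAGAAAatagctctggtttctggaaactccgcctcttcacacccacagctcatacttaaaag
Ifit1: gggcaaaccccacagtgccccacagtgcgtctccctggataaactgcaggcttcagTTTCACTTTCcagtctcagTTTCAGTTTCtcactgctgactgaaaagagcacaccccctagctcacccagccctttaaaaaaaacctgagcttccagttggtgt
Oas1a: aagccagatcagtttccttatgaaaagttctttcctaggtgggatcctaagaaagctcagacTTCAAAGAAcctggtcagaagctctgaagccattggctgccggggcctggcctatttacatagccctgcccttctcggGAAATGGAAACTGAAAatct
Trim30a: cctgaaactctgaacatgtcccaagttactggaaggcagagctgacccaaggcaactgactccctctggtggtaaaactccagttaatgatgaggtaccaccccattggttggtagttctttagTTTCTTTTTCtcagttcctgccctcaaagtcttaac
Irgm1: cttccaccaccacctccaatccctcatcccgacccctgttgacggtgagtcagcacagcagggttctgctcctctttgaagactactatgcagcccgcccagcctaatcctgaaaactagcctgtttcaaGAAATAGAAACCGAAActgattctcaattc
Irgm2: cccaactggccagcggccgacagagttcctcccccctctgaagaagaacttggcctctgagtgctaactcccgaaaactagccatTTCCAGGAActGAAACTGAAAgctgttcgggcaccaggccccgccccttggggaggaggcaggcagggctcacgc
Igtp: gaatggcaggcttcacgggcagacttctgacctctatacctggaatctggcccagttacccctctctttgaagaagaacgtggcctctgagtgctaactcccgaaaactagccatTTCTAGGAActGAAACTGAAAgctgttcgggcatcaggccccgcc
Set against each other with a shift of 30 bases, the Igtp and Irgm2 stretches were identical at 107 of 130 positions (82.3%).

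The first genes by role are a signal transducer and the ISG15 system, with gene positions on GRCm38.p6. Stat2, the transducer of the type I response (chromosome 10, 128270498 to 128292853), had 66.8 and 70.6 CPM in KO, against 58.5 and 64.9 CPM in WT. Both KO libraries lay above both WT libraries, but the gap between KO replicate 1 and WT replicate 2 was smaller than the difference between the WT replicates. The log2 fold change of Stat2 was 0.15 (SE 0.20, edgeR adjusted p = 0.936, 2 libraries a group), and its 95% interval, -0.34 to 0.65, was the narrowest among the members. Isg15, a ubiquitin-like protein that is attached to other proteins in infected cells (chromosome 4, 156199424 to 156200818), was present at 1.48 and 1.29 CPM in KO and 1.95 and 2.44 CPM in WT, from 24 and 22 counts in KO and 39 and 46 counts in WT. It was lower in both KO libraries, with a log2 fold change of -0.66 (SE 0.61), and counts this low leave an interval from -2.19 to 0.87. Usp18, the protease that removes ISG15 and damps receptor signalling, had 1.98 and 0.76 CPM in KO and 1.40 and 1.01 CPM in WT, so the groups overlapped (log2 fold change 0.18, SE 0.77).

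The cytosolic RNA sensors had narrow intervals and lay on opposite sides of WT. Ddx58, which encodes RIG-I (chromosome 4, 40203777 to 40239825), had 24.1 and 29.4 CPM in KO and 23.9 and 20.5 CPM in WT. KO was barely above WT in replicate 1, and the log2 fold change was 0.27 (SE 0.27). Ifih1, which encodes MDA5 (chromosome 2, 62595618 to 62646255), had 35.8 and 33.8 CPM in KO and 41.4 and 44.6 CPM in WT. Both KO libraries were lower and the replicates lay close together, with a log2 fold change of -0.30 (SE 0.21, interval -0.84 to 0.23, edgeR adjusted p = 0.853). Zbp1, a sensor of Z-form nucleic acid that can start necroptosis, had 1.86 and 1.64 CPM in KO and 2.10 and 0.85 CPM in WT. Its WT libraries enclosed the KO libraries (log2 fold change 0.24, SE 0.72).

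The IFIT, OAS and MX genes, an antiviral set of 10, summed to 71.0 and 46.3 CPM in KO and 71.1 and 53.5 CPM in WT. Replicate 1 was the higher library in both genotypes. Of the 10 genes 7 were tested, with 4 fold changes above 0 and 3 below.

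The IFIT proteins bind foreign RNA and block its translation, and their genes lie together on chromosome 19. Ifit2 had 9.65 and 9.45 CPM in KO and 18.7 and 7.22 CPM in WT, so that the WT libraries differed more from each other than from KO (log2 fold change -0.44, SE 0.54). Ifit1 had 7 and 2 counts in KO and 6 and 0 counts in WT, and Ifit3 had 7 and 0 counts in KO and 1 and 0 counts in WT. A count of 0 allows up to 3 counts, which equal 0.186 and 0.176 CPM in KO and 0.150 and 0.159 CPM in WT. Both genes stood at or near that limit outside KO replicate 1 and, for Ifit1, WT replicate 1. Ifit3 has a near-identical copy, Ifit3b, listed at 0 counts in the 4 libraries, and reads that fit both would count for neither.

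The OAS enzymes make the messenger that switches on RNase L in virus-infected cells, while the OASL proteins are related but lack that activity in part of the family. Oas1a (chromosome 5, 120896256 to 120907544) had 20.04 and 10.6 CPM in KO and 27.2 and 23.6 CPM in WT. Both KO libraries were lower, but the KO replicates differed from each other by more than the fold change, with a log2 fold change of -0.73 (SE 0.39, interval -1.71 to 0.26, edgeR adjusted p = 0.772). Oas2 had 25.0 and 12.9 CPM in KO and 15.6 and 10.6 CPM in WT, and KO replicate 1 alone lay above both WT libraries (log2 fold change 0.53, SE 0.45). Oas3 was at 7.11 and 8.98 CPM in KO and 6.15 and 8.22 CPM in WT. Oas3 was higher in replicate 2 of both genotypes, and its groups overlapped (log2 fold change 0.16, SE 0.43). Oasl1 had 0.62 and 0.88 CPM in KO and 1.35 and 0.53 CPM in WT, and Oasl2 had 2.35 and 0.70 CPM in KO and 0.80 and 0.58 CPM in WT. The groups overlapped in both genes, with a log2 fold change of -0.33 for Oasl1 (SE 0.81). Oasl2 had the highest fold change of the 28 members, 1.13 on the log2 scale (SE 0.85), and it rested on the 38 counts of KO replicate 1, since KO replicate 2 held 12 counts and the WT libraries 16 and 11. The copies of the Oas1 family are alike, so reads shared between them make the Oas1a counts uncertain.

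Mx1, a dynamin-like GTPase that blocks influenza virus, is known to be disrupted by a deletion in C57BL/6 mice, so its counts come from a broken gene. It had 4.76 and 2.64 CPM in KO and 0.90 and 2.81 CPM in WT, with a log2 fold change of 0.99 (SE 0.78). WT replicate 1 was the lowest library, and KO replicate 2 lay below WT replicate 2, so the groups overlapped. Mx2 had 10 and 1 counts in KO and 2 and 1 counts in WT and was not tested.

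Among the other effectors, Isg20, a 3′ exonuclease that degrades RNA (chromosome 7, 78913396 to 78920396), had 8.41 and 8.81 CPM in KO and 5.45 and 3.29 CPM in WT. The KO libraries were close together and above both WT libraries, and this was the member nearest to a call. Its log2 fold change was 0.98 (SE 0.48, interval -0.24 to 2.2), with an unadjusted p of 0.0959 and an adjusted p of 0.747 by edgeR. Trim30a, an inhibitor of Toll-like receptor signalling (chromosome 7, 104409025 to 104465193), was at 50.1 and 39.3 CPM in KO and 34.4 and 37.8 CPM in WT. KO was above WT in both libraries, with KO replicate 2 only just so, and the log2 fold change was 0.31 (SE 0.24).

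Lower in both KO libraries were Bst2 and Xaf1. Bst2, the tether that holds budding viruses at the cell surface (chromosome 8, 71534255 to 71537472), had 28.3 and 16.1 CPM in KO and 35.2 and 34.2 CPM in WT. The WT libraries agreed closely while the KO libraries did not, and the log2 fold change was -0.64 (SE 0.34, edgeR adjusted p = 0.769). Bst2 is also a marker of plasmacytoid dendritic cells, and the other markers of those cells on the list, Siglech, Ccr9, Cox6a2 and Klk1, were under 1 CPM in each library. Siglech had 12 and 2 counts in KO and 0 and 0 counts in WT, and Cox6a2 had 3 and 3 counts in KO and 19 and 1 counts in WT. Xaf1, a partner of the apoptosis inhibitor XIAP, had 4.02 and 3.05 CPM in KO and 7.40 and 5.52 CPM in WT, with a log2 fold change of -0.87 (SE 0.50).

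The remaining tested effectors overlapped between the groups. Parp14, an ADP-ribosyltransferase, had 11.9 and 9.63 CPM in KO and 7.15 and 11.6 CPM in WT. Rsad2, the viperin enzyme that makes a chain-terminating nucleotide, had 1.55 and 0.998 CPM in KO and 1.40 and 0.80 CPM in WT. Replicate 1 was again the higher library of Rsad2 in both genotypes, and the log2 fold changes were 0.20 for Parp14 (SE 0.43) and 0.21 for Rsad2 (SE 0.71). Ifi27l2a, an interferon-induced membrane protein gene, had 5.01 and 1.35 CPM in KO and 1.95 and 1.01 CPM in WT, with KO replicate 1 well above the rest (log2 fold change 1.10, SE 0.85). Cxcl10, a chemokine that draws T cells, had 1.98 and 0.53 CPM in KO and 0.15 and 1.22 CPM in WT, a log2 fold change of 0.87 (SE 1.19). Rtp4, a chaperone of receptors, had 0.80 and 0.12 CPM in KO and 0.95 and 0.16 CPM in WT, a log2 fold change of -0.28 (SE 1.27). In both of these genes the log2 difference between replicates exceeded the fold change in each genotype. Ifi44 had 0 counts in each of the 4 libraries.

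The GBP and IRG proteins gather on vacuoles that hold parasites or bacteria and help to break them open. The group summed to 121 and 79.5 CPM in KO and 130 and 103 CPM in WT. Its mean was 100.1 ± 29.1 CPM in KO and 116 ± 18.8 CPM in WT (SD, n = 2 each). Gbp3 alone gave 18.6 CPM of the KO mean and 35.0 CPM of the WT mean, so the gap between the means lay in that gene. Of the 6 tested genes 2 had a fold change above 0 and 4 below, and the groups overlapped in 6 of 6. The median log2 fold change was -0.14.

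Gbp3 varied most within this group. It had 26.8 and 10.3 CPM in KO and 51.9 and 18.1 CPM in WT, from 434 and 175 counts in KO and 1037 and 342 counts in WT. Replicate 1 was more than double replicate 2 in both genotypes, and KO was lower than WT at each replicate number, although KO replicate 1 lay above WT replicate 2. The log2 fold change was -0.92 (SE 0.67, edgeR adjusted p = 0.859), and without WT replicate 1 it was 0.03. Gbp7 had 23.9 and 16.3 CPM in KO and 23.1 and 22.2 CPM in WT. KO replicate 2 stood below the other libraries (log2 fold change -0.17, SE 0.31). Gbp2 had 0.56 and 1.06 CPM in KO and 1.05 and 0.90 CPM in WT, a log2 fold change of -0.27 (SE 0.73), and its KO libraries enclosed the WT libraries. The Gbp genes lie side by side on chromosome 3 and resemble each other, so reads that fit more than 1 of them make their counts uncertain.

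The IRG genes that regulate the family, Irgm1, Irgm2 and Igtp, each overlapped between the groups. Irgm1, needed in mice for resistance to mycobacteria (chromosome 11, 48865245 to 48871420), had 32.1 and 20.8 CPM in KO and 27.2 and 29.97 CPM in WT. Irgm2 was at 17.9 and 13.1 CPM in KO and 10.4 and 13.6 CPM in WT. Igtp was at 19.4 and 17.9 CPM in KO and 15.95 and 18.1 CPM in WT. Irgm2 and Igtp, whose promoter stretches are printed above, shared the order of libraries at its ends, with the highest level in KO replicate 1 and the lowest in WT replicate 1. The log2 fold changes were -0.11 for Irgm1 (SE 0.30), 0.37 for Irgm2 (SE 0.36) and 0.13 for Igtp (SE 0.29). Iigp1, an effector IRG on chromosome 18, had 0 counts in each of the 4 libraries.

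**Figure D2:**
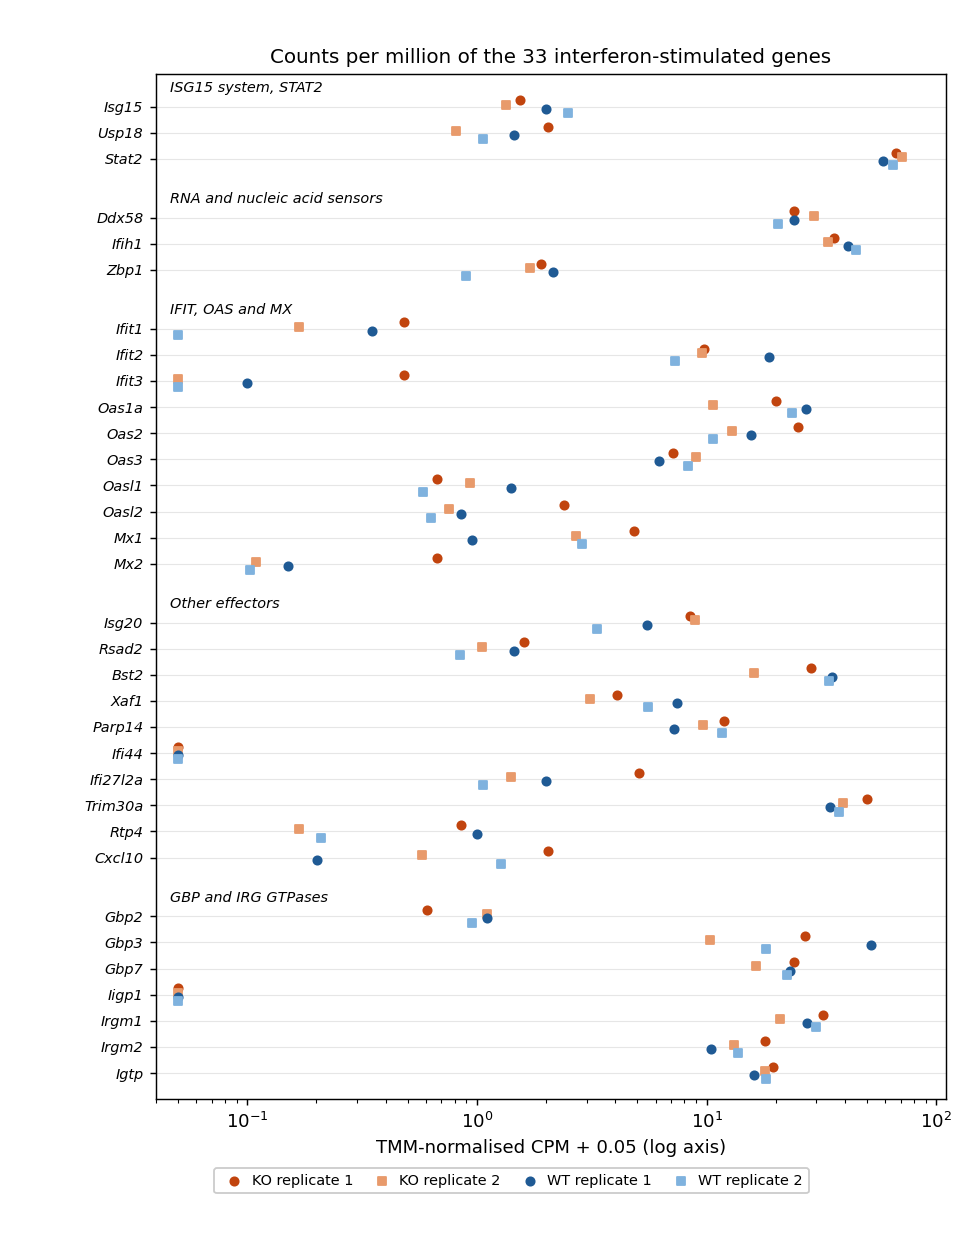
TMM-normalised CPM plus 0.05 (x axis, log scale) of each of the 33 genes (rows, grouped by role) in KO replicates 1 and 2 (orange shades) and WT replicates 1 and 2 (blue shades), circles for replicate 1 and squares for replicate 2. Ifi44 and Iigp1 sit at the left edge with 0 counts in each library, and KO and WT points are interleaved for 19 of the 28 tested genes.

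The 2 groups were then compared per library. The 26 type I genes summed to 315 and 264 CPM in KO and 294 and 283 CPM in WT. That gave a mean of 289 ± 36.4 CPM in KO and 289 ± 7.80 CPM in WT (SD, n = 2 each). The GTPase sum was 0.383 and 0.301 of the type I sum in KO and 0.440 and 0.364 in WT. These ratios overlapped, and they carry the Gbp3 values given above. The median log2 fold change of the type I group was 0.19 over 22 tested genes and that of the GTPase group -0.14 over 6, with -0.0043 over all genes tested. Either sign depended on 1 library: the type I median was -0.11 without KO replicate 1, and the GTPase median was 0.12 without KO replicate 2. The GTPase median difference in log2 CPM was 0.15 between the replicates numbered 1 and -0.25 between those numbered 2, and that of the type I group was 0.17 for number 1 and 0.089 for number 2. The difference between the groups was not tested, and at 2 libraries against 2 an exact two-sided permutation test cannot give a p below 0.3333.

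**Figure D3:**
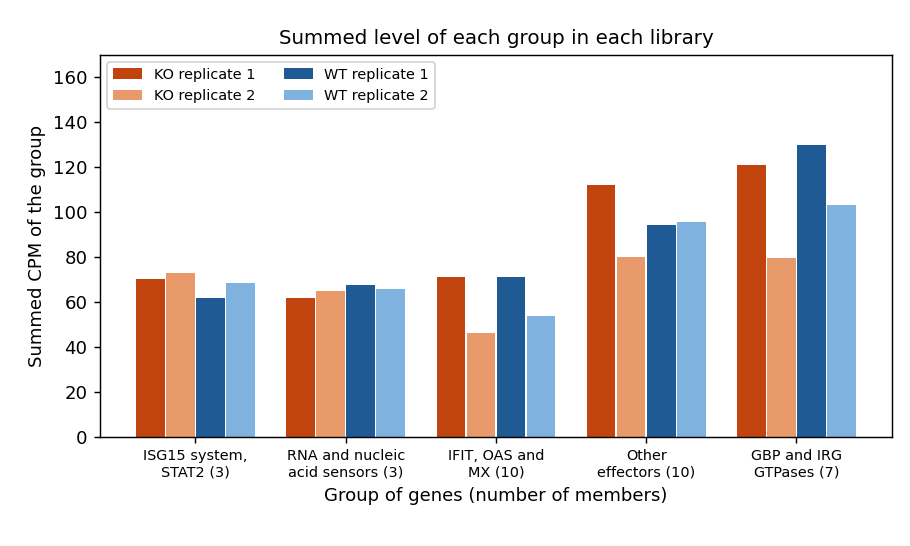
Summed CPM (y axis) of the 5 groups by role (x axis, number of members in brackets) in each library, with KO replicates 1 and 2 to the left of WT replicates 1 and 2. The signal transducer and sensor sums are nearly level across the libraries, from 61.7 to 72.7 CPM. The IFIT, OAS and MX sum and the GTPase sum are lower in replicate 2 of both genotypes. In WT the lower GTPase sum lies in Gbp3, at 51.9 and 18.1 CPM, whereas Irgm1, Irgm2 and Igtp are higher in replicate 2.

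Between single replicate libraries the median difference was larger than the one fitted between genotypes. These are unlike measures, since the fold change is fitted over 2 libraries a group. The 2 KO libraries differed by a median of 0.52 in log2 CPM over the 28 genes and the 2 WT libraries by 0.43, against a median absolute fold change of 0.32 between KO and WT. Over all genes tested the same values were 0.43, 0.27 and 0.26. The fold change exceeded both replicate differences in 5 of 28 members (17.9%), against 24.7% of all genes tested. KO replicate 1 was above KO replicate 2 in 22 of 28 members (78.6%), against 50.7% of all genes tested, and WT replicate 1 was above WT replicate 2 in 17 of 28 (60.7%), against 50.2%. Replicate 1 was the higher one in both genotypes in 13 of 28 members, against 29.5% of all genes tested. Replicate 2 was the higher one in both in 2 of 28, for which no share over all genes was computed. KO replicate 1 was the highest library in 13 of 28 members (46.4%, against 30.4% of all genes tested).

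Marker lists of other cells also differed between replicates, and markers on the neutrophil, monocyte and dendritic cell lists differed between genotypes as well. Of the 17 dendritic cell markers, 10 were tested, with 6 fold changes above 0 and 4 below. DESeq2 passed 4 as higher, while Klk1 had 0 counts throughout. All 17 summed to 1897 and 427 CPM in KO and 379 and 224 CPM in WT, and the excess in KO replicate 1 lay in the class II genes given above. Flt3 was lowest in that library, with 69.1 and 286 CPM in KO and 248 and 153 CPM in WT. Of the 14 monocyte and macrophage markers, 11 were tested, with 7 fold changes above 0 and 4 below, and 4 passed DESeq2 as higher. Both KO libraries lay above both WT libraries in 6 of the 11 (54.5%, against 18.1% of all genes tested). They lay below in 1 (9.1%, against 19.1%), Cd68, with 96.1 and 84.8 CPM in KO and 150 and 133 CPM in WT. The 14 summed to 2343 and 2023 CPM in KO and 2325 and 1363 CPM in WT. More than 0.5 of each sum was Ly6c2, and the other 13 summed to 1085 and 816 CPM in KO and 392 and 508 CPM in WT. The 9 immediate early genes, among them Fos and Jun, ran the other way. They summed to 1903 and 11366 CPM in KO and 1249 and 4182 CPM in WT. Replicate 2 was higher in both genotypes in 9 of 9 cases, and the share of all genes with that order was not computed. The 11 neutrophil markers summed to 21365 and 28789 CPM in KO and 1173 and 5718 CPM in WT, with 11 of 11 fold changes above 0. Both KO libraries lay above both WT libraries in 8 of the 11 (72.7%, against 18.1% of all genes tested). DESeq2 called 5 of the 11 as higher, and it called 209 of 13422 genes as higher in all. These lists were chosen with earlier results of these data known, so their shares describe them and test nothing. The part of these marker and immediate early genes in the replicate differences of the interferon-stimulated genes was not tested.

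**Figure D4:**
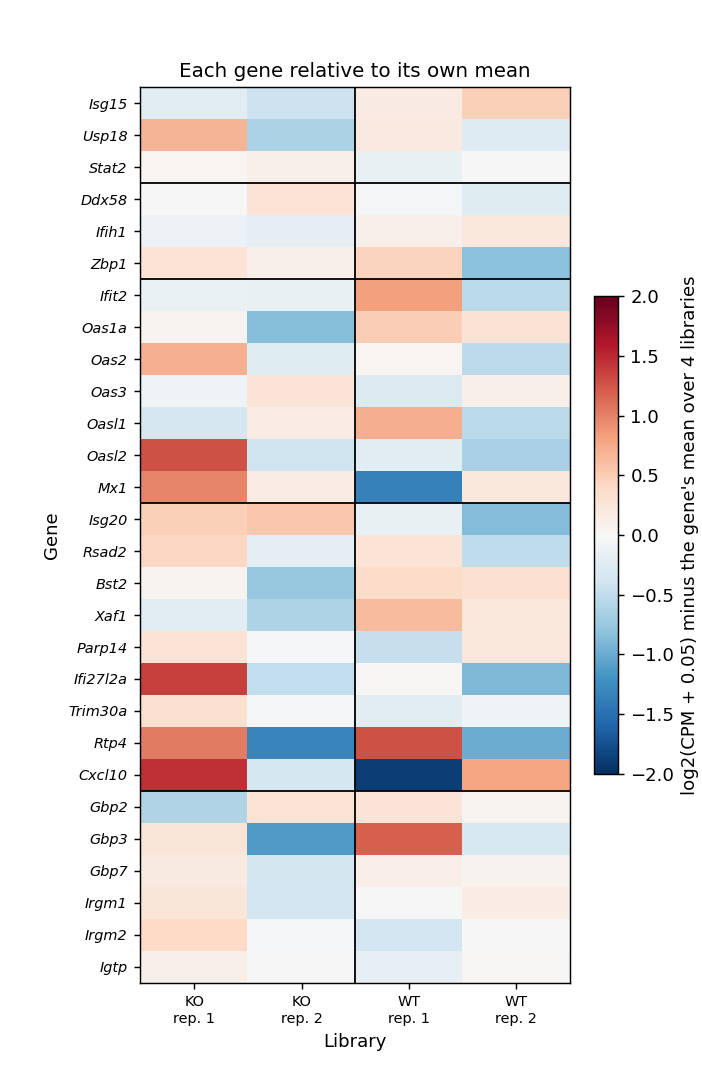
Log2(CPM + 0.05) of the 28 tested genes minus each gene's mean over the 4 libraries (colour), by library (columns, KO left of WT) and gene (rows, grouped by role). Red cells gather in KO replicate 1, the highest library in 13 of 28 genes.

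Among the genes of the signalling chain, with all 4 libraries, DESeq2 called 1 kinase gene and no other, and edgeR and voom called 0. DESeq2 called 352 of 13422 genes (2.62%), so 1 of the 32 tested pathway genes was near the share of all genes. Of 40 pathway genes, 32 were tested, 0 passed edgeR, 19 had a fold change above 0 and 13 below, and the median was 0.13. KO was above WT in both libraries in 12 of the 32 (37.5%, against 18.1% of all genes tested) and below in 3 (9.4%, against 19.1%). The pathway list too was chosen with earlier results of these data known, so these shares test nothing. The ligand genes Ifnb1, Ifng, Ifna1, Ifna2, Ifna4 and Ifne had 0 counts in each library, and Ifnk had 0 and 2 counts in KO and 0 and 0 counts in WT. Ifnar1 was at 106 and 102 CPM in KO and 116 and 106 CPM in WT, and Ifnar2 at 180 and 151 CPM in KO and 134 and 151 CPM in WT. The log2 fold changes of these receptor genes were -0.10 for Ifnar1 (SE 0.19) and 0.22 for Ifnar2 (SE 0.21). The interferon gamma receptor genes Ifngr1, with 673 and 594 CPM in KO and 774 and 518 CPM in WT, and Ifngr2, with 76.8 and 39.4 CPM in KO and 53.8 and 55.1 CPM in WT, both overlapped.

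Among kinases and transcription factors, Jak1 had 199 and 296 CPM in KO and 214 and 284 CPM in WT, and Tyk2 had 74.4 and 124 CPM in KO and 97.5 and 130 CPM in WT. Both kinase genes were higher in replicate 2 of each genotype. Irf9, the DNA-binding partner of STAT2, was at 46.0 and 39.6 CPM in KO and 32.6 and 39.7 CPM in WT, and Irf1 at 57.7 and 79.2 CPM in KO and 63.5 and 63.2 CPM in WT. Neither separated the groups. Irf7, the amplifier of type I responses, was lower in both KO libraries, at 6.31 and 5.93 CPM in KO and 8.20 and 8.44 CPM in WT, with a log2 fold change of -0.44 (SE 0.41). Socs1, the feedback inhibitor of JAK kinases, had 6.00 and 4.46 CPM in KO and 3.70 and 3.61 CPM in WT.

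The gene called was Ikbke, which encodes a kinase that activates IRF3 and IRF7. It had 126 and 139 CPM in KO and 48.0 and 60.4 CPM in WT. Both KO libraries lay above both WT libraries, 2.45-fold by the fit, and the gap was larger than either replicate difference. Ikbke rose by DESeq2 (adjusted p = 8.42e-04), the 1 call among the 32 genes. It did not pass edgeR over all genes (log2 fold change 1.29, SE 0.21, unadjusted p = 0.00133, adjusted p = 0.444). The DESeq2 adjusted p was 0.0210 without KO replicate 1, 0.0389 without KO replicate 2, 0.426 without WT replicate 1 and 0.0495 without WT replicate 2. Its sister kinase Tbk1 was at 111 and 108 CPM in KO and 92.1 and 101 CPM in WT, with a log2 fold change of 0.18 (SE 0.19). Other pathway genes with a small unadjusted p by edgeR were Tlr7, Mavs, Irf2, Ifnlr1 and Stat3, which encode an endosomal RNA receptor, the adaptor of RIG-I and MDA5, an interferon regulatory factor, a lambda interferon receptor chain and a signal transducer. Their log2 fold changes were 2.27 (SE 0.91) for Tlr7, -0.62 (SE 0.25) for Mavs, 0.52 (SE 0.24) for Irf2, 2.15 (SE 1.01) for Ifnlr1 and 0.64 (SE 0.31) for Stat3, with edgeR adjusted p from 0.652 to 0.738. Tlr7 had 24.3 and 6.46 CPM in KO and 1.40 and 4.99 CPM in WT, and its log2 fold change ran from 1.02 without KO replicate 1 to 3.46 without WT replicate 2. Ifnlr1 had 4.27 and 8.63 CPM in KO and 0.35 and 2.55 CPM in WT, and its log2 fold change ran from 1.34 without WT replicate 1 to 4.19 without WT replicate 2. Ifnlr1, Irf8, Ikbke and Tlr7 were each called by DESeq2 in a fit with a library left out, where 1 group held 1 library. Without WT replicate 2 the edgeR log2 fold changes were 4.19 for Ifnlr1, 1.75 for Irf8, 1.48 for Ikbke and 3.46 for Tlr7. Without WT replicate 1 they were 1.34, -0.18, 1.14 and 1.62, in the same order.

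**Figure D5:**
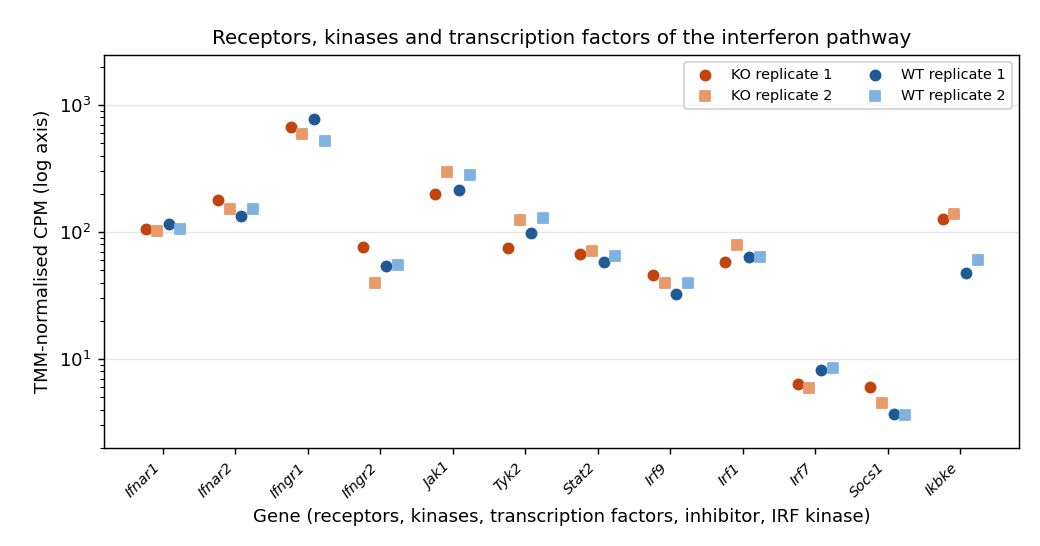
TMM-normalised CPM (y axis, log scale) of interferon receptors, kinases, transcription factors, the inhibitor gene Socs1 and the kinase gene Ikbke (x axis) in KO replicates 1 and 2 (orange shades) and WT replicates 1 and 2 (blue shades). Ikbke lies at 126 and 139 CPM in KO, above 48.0 and 60.4 CPM in WT, whereas the points of Irf9 and Jak1 are interleaved.

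A further list of 57 interferon-stimulated genes outside the 33 was read in the same fit. Of these, 56 were in the files, 44 were tested, and 0 passed edgeR or DESeq2, with 24 fold changes above 0, 20 below and a median of 0.05. The lowest unadjusted p by edgeR was at Slfn2, a growth regulator of T cells and monocytes, with 222 and 180 CPM in KO and 121 and 90.0 CPM in WT (log2 fold change 0.93, SE 0.25, edgeR adjusted p = 0.457, DESeq2 adjusted p = 0.0734). Its relatives Slfn8 and Slfn9 lay on the other side. Slfn8 had 5.13 and 2.76 CPM in KO and 9.30 and 9.76 CPM in WT, and Slfn9 had 17.6 and 12.9 CPM in KO and 38.2 and 21.6 CPM in WT. Gbp5, a GBP that supports inflammasomes and stood outside the GTPase group above, had 18 and 13 counts in KO and 1 and 3 counts in WT. Its log2 fold change was 3.09 (SE 0.96, interval 0.68 to 5.51, edgeR adjusted p = 0.526). Ms4a4c had 10.95 and 5.52 CPM in KO and 0.50 and 2.65 CPM in WT (log2 fold change 2.38, SE 0.91), and Sp140 had 130 and 105 CPM in KO and 59.0 and 88.2 CPM in WT (log2 fold change 0.67, SE 0.27). Neither Ms4a4c nor Sp140 was called with all 4 libraries. KO replicate 1 was the highest library in 20 of the 44, as it was in 13 of the 28 members. Slfn4, Ifi203, Samd9l, Ms4a4c, Ddx60 and Lgals3bp are given next because DESeq2 called them in a fit with a library left out. The edgeR log2 fold change of Slfn4 was -1.55 without KO replicate 1 and 0.93 without KO replicate 2. That of Ifi203 was 0.84 without KO replicate 1 and 3.34 without KO replicate 2. Without WT replicate 2 the log2 fold changes were 3.84 for Ifi203, 1.54 for Samd9l, 4.03 for Ms4a4c, 2.72 for Ddx60 and -1.72 for Lgals3bp. Without WT replicate 1 they were 1.91, 0.45, 1.63, -0.23 and 0.21, in the same order.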

How the data were processed

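The authors deposited unnormalised read counts for 24421 gene symbols in each of 4 RNA libraries. Per the submitters' processing notes the tools included STAR 2.3.0 and HTSeq with build mm10, with no role stated. The gene annotation, strand mode and filtering of reads were not given in the sources used here. The last 5 lines, which name no gene and hold 69.3% to 72.4% of all counts, entered neither library sizes nor tests. Multiply aligned reads made up 26.0% to 33.1% and count for no gene, which lowers near-identical paralogs. Replicates were not duplicates: chi-square divided by its degrees of freedom was 109 between KO libraries and 80.5 between WT libraries. A floor of 3 counts covers counting error only.

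In R 4.3.3, genes passing edgeR 4.0.16's filterByExpr (12623) were scaled with TMM and compared, KO with WT, by its robust quasi-likelihood test over all 4 RNA libraries with no covariate. The SE is the fold change divided by the square root of F, and intervals are 95%. DESeq2 1.42.0 and voom in limma 3.58.1 were alternatives. The code was tested on simulated data. All 33 members are named. Pathway genes named are fixed signalling genes, any called gene and those of smallest edgeR p, and some of these are not reported here. Gene positions and promoters come from RefSeq on GRCm38.p6, the assembly of mm10. Members and lists were chosen with earlier results of these data known.

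Alternatives were other scalings and count filters, DESeq2, voom, no robust moderation, the replicate number as a block, and leaving out each library.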

Additional observations from a re-analysis of the deposited data

How the results depend on the processing

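With 2 libraries per group, 1 library can turn many of these values. Members called stayed at 0 under every alternative run. Genes called over all genes, 0 by edgeR, were 4 with no low-count filter, 352 by DESeq2 and 11 with the replicate block. With 1 library left out edgeR called 0 to 156 genes, while DESeq2 called 178 without KO replicate 1, 384 without KO replicate 2, 162 without WT replicate 1 and 390 without WT replicate 2. The labels do not say that replicate numbers pair libraries, and deviations of same-numbered libraries correlated at 0.19 over genes. With the replicate block the type I median was 0.20. With a library left out the type I median ran from -0.11 to 0.39 by edgeR and was -0.10 without KO replicate 1 by DESeq2. The GTPase median ran from -0.19 to 0.12 by edgeR and was 0.13 without KO replicate 2 by DESeq2, and within replicate number 1 it was 0.15. Of 493 recomputed member fold changes, 50 in 18 members changed sign: 38 in 15 members with a library left out, and 12 within a replicate number, where Mx1, Irgm2 and Igtp changed sign as well. The cause was not tested. The edgeR log2 fold changes of the 15 with a library left out ran as follows: Usp18 -0.65 to 0.71, Oas2 -0.023 to 0.93, Rsad2 -0.14 to 0.67, Ifi27l2a -0.13 to 1.75, Cxcl10 -0.36 to 3.01, Gbp2 -0.80 to 0.12, Oas3 -0.029 to 0.40, Rtp4 -2.18 to 1.48, Gbp7 -0.47 to 0.078, Irgm1 -0.46 to 0.17, Ifit2 -0.96 to 0.41, Oasl1 -0.83 to 0.50, Parp14 -0.10 to 0.60, Gbp3 -1.77 to 0.032, Zbp1 -0.25 to 1.04. Those that changed sign by DESeq2 were Usp18 -0.65 and -0.025, Oas2 -0.014, Rsad2 -0.13 and -0.13, Ifi27l2a -0.12, Cxcl10 -0.36, Gbp2 0.13, Oas3 -0.012 and -0.022, Rtp4 0.54 and 1.53, Gbp7 0.082, Irgm1 0.17, Ifit2 0.41, Oasl1 0.51, Parp14 -0.099, Gbp3 0.036, Zbp1 -0.25. Where 1 library was left in a group, its spread was taken from the other genotype. Members under a mean of 5 CPM had a median SE of 0.77, against 0.35 for the others.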
